A study of Homo sapiens with 4 samples.

Results

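The cytosolic ribosomal proteins were followed in 4 cultures of the human glioblastoma cell line LN-229, each read on 1 Affymetrix 3' expression array. The 2 control cultures received no treatment, and the other 2, called induced here, were given doxycycline (Doxocyclin in the labels) over 48 h so that they would express the secreted WNT antagonist WIF1. The labels call the replicates biological, and as no array had doxycycline without WIF1, the drug and the protein cannot be told apart. The members were all probe sets whose only gene symbol in the platform annotation is that of a ribosomal protein of the large subunit (RPL genes with the stalk proteins RPLP1 and RPLP2) or of the small subunit (RPS genes). This gave 111 of 54613 probe sets, 62 for 32 genes of the large subunit and 49 for 20 genes of the small subunit. RPLP0 and RPSA, which the choice also allowed, had no such probe set and were not analysed here. Values are log2 intensities, and every difference below is induced minus control on that scale with n = 2 arrays in each group.

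The cytosolic ribosome translates nuclear messenger RNAs. Its large subunit forms peptide bonds and its small subunit reads the codons, and each is built in the nucleolus from ribosomal RNA and many mostly small, basic proteins. Most of the proteins are needed in equal numbers, and their genes are among the most strongly expressed in growing cells. Most of their messenger RNAs open with a 5' terminal oligopyrimidine (TOP) tract, a C followed by a run of C and T, through which the kinase mTOR controls their translation. An array measures the amount of RNA and does not see that control. These genes also have many processed pseudogenes, so probes of near-identical sequence can share signal with them.

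The TOP tract is the sequence feature by which these genes are best known, so the annotated start sites were looked at first. Of the 52 member genes, 46 had at least 1 window in the RefSeq promoter table (GRCh38.p14), and these lay on 17 chromosomes, with 7 genes on chromosome 19. At the annotated start, 34 of the 46 genes (73.9%) began with a C and continued for 4 more bases with only C or T, against 5.14% of 27305 genes in the table. The share was 20 of 27 for the large and 14 of 19 for the small subunit. The lines below give 30 bases around the start of the genes that the results turn on, 15 before it and 15 from it on, with the unbroken C and T tract that holds the start in capitals. RPL27 and RPS4X are shown as members without a tract at the annotated start.
RPS25 (chr11:119018329-119018358, minus strand): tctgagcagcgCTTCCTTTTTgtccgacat
RPS24 (chr10:78033848-78033877, plus strand): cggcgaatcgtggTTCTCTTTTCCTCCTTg
RPS6 (chr9:19380222-19380251, minus strand): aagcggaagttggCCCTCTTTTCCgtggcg
RPS21 (chr20:62387088-62387117, plus strand): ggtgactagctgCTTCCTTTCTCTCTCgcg
RPL14 (chr3:40457324-40457353, plus strand): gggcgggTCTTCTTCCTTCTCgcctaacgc
RPL37A (chr2:216498829-216498858, plus strand): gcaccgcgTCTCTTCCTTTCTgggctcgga
RPLP1 (chr15:69452803-69452832, plus strand): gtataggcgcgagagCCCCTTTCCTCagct
RPL27 (chr17:42998404-42998433, plus strand): ccggggtgaaaggttagcggaagtgtcctt
RPS4X (chrX:72277234-72277263, minus strand): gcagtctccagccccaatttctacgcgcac

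In the whole 300-base windows, searched on both strands, the letters CTCTTTCC (a TOP-like stretch that can overlap the tract above) were found in 6 of the 46 genes, 13%, against 3.7% of all genes. The ETS factor core CCGGAAG was in 17 genes, 37%, against 12.2%, and the YY1 core AAGATGGCG in 3 genes, 6.52%, against 2.14%. The TATA box letters TATAAA were in 3 genes, 6.52%, against 14%. These shares describe letters in a window and not sites in use. The 34 genes with a tract at the start had a median difference of 0.018 on the arrays, and the 12 without one had 0.034.

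Over the series, limma called 0 of 54613 probe sets at an adjusted p under 0.05 (0%), and at an unadjusted p under 0.05 stood 2593 higher and 2876 lower. The count of calls was 2 with robust estimation, 5 after centring each array and 11 after cyclic loess. The targeted gene WIF1 was read near the floor by 1 probe set, measured at 2.98 and 2.90 without induction, and 2.93 and 3.03 with it. Its difference was 0.043 (SE 0.101, adjusted p = 0.911), so the arrays labelled induced showed no higher WIF1 signal, and whether this probe set can read the introduced WIF1 was not tested. The labels thus have no check from the targeted gene, and induced means labelled induced throughout. Of 7 glioma and astrocyte markers, VIM, NES, CD44, S100B and FABP7 had mean signals at or above the 97.5 percentile of all probe sets, OLIG2 was at 80.6 and GFAP, the astrocyte filament, at 40.4. S100B differed by -0.12 (SE 0.038, adjusted p = 0.472) and FABP7 by -0.19 (SE 0.034, adjusted p = 0.437), and limma called neither. The other FABP7 probe sets ran from -0.29 to -0.060. Of the leukocyte markers PTPRC, CD14 and CD3E lay at the 13.4, 38.4 and 60 percentiles. Of the epithelial markers EPCAM, CDH1 and KRT19 lay at 8.2, 23.2 and 25.9, and of the endothelial markers CDH5, VWF and PECAM1 at 15.2, 56.3 and 63. CD3E, VWF and PECAM1 were thus above GFAP in percentile, though percentiles of different probe sets do not compare amounts of RNA. No list of those 3 classes had a member with an unadjusted p under 0.05. As bulk RNA was measured, fewer cells of a type and less RNA per cell cannot be told apart.

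No ribosomal protein gene was called different after induction. Of the 111 probe sets 0 passed an adjusted p under 0.05 in limma, and the smallest adjusted p among them was 0.472. At an unadjusted p under 0.05, 5 member probe sets were higher, where the share over all probe sets was 4.75%, and 1 was lower, where it was 5.27%, so that 4.5% of the members stood in the first direction and 0.901% in the second. By sign 67 were higher and 44 lower, which cyclic loess between the arrays turned to 45 and 66. The 2 groups did not overlap in 41 probe sets in the higher and 20 in the lower direction, where 17.9% and 23.5% of all probe sets did so. That comparison is not matched in brightness. Of the 67 members with a log2 mean of at least 12, 31 did so in the higher and 11 in the lower direction. Of 733 other probe sets above the same limit, which carry no symbol that the choice of members allowed, 241 and 165 did so. These 733 still hold FAU, RPS27L, RPL36AL and RPL22L1, ribosomal genes and paralogs outside that choice. Counting both directions, the shares were 62.7% and 55.4%, and their difference was not tested. The shares by p over all probe sets above, and over all genes below, also take in dim probe sets. Among the 67 bright members, 3 (4.48%) had a positive difference with p below 0.05 before adjustment, and 0 a negative one. In the 733 these shares were larger, at 13.8% and 5.59%. This gap was not tested either, and the 733 were not matched to the members in brightness beyond the limit of 12.

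The members fell into a very bright part and a dimmer part. With a limit set at a log2 mean of 12 after the values were seen, 67 probe sets from 49 genes were bright, the least bright at 12.31, and the other 44 ran from 4.07 to 11.81. Of the 547 probe sets in the top 1% of the array by mean signal, 66 were members. The bright members reached 14.26, while the highest value of any probe set was between 14.44 and 14.46 in the 4 arrays, so the brightest of them lay close to the upper end of the scale. Brightness depends on the probes and is no measure of which gene is more abundant.

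**Figure D1:**
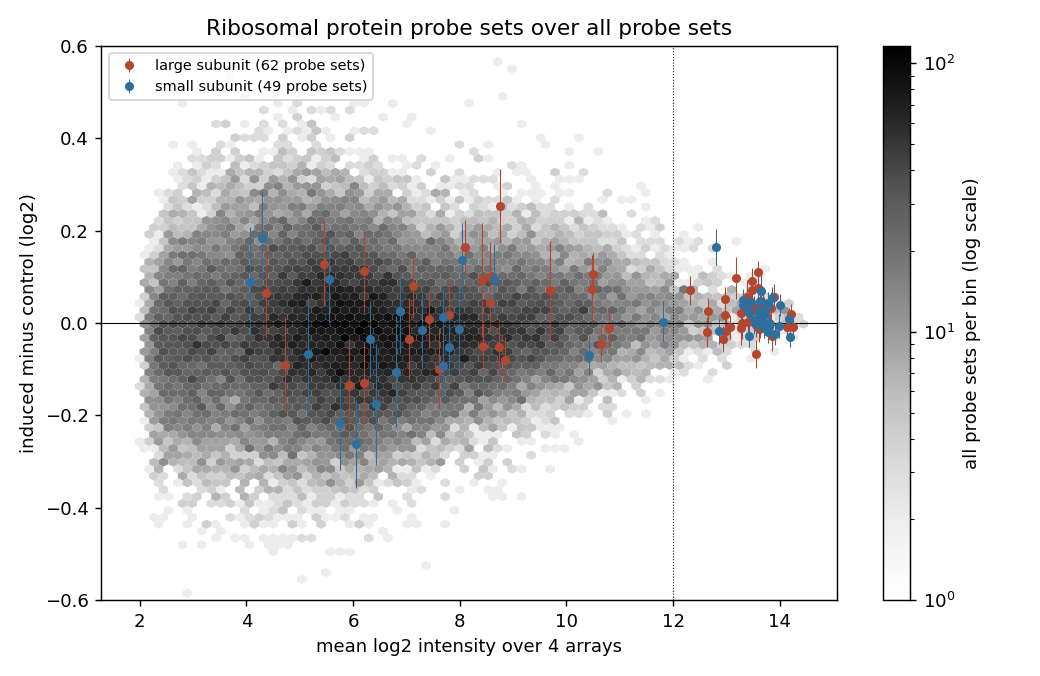
The difference between induced and control arrays (vertical axis, log2, with its standard error) against the mean log2 intensity over the 4 arrays (horizontal axis) for the 62 large subunit and 49 small subunit probe sets, over grey bins that count all probe sets (50 lie outside the range shown). To the right of the dotted line at 12 the members stay between -0.066 and 0.165, and to its left they spread from -0.26 to 0.25.

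In the bright part the differences and the gaps between replicates were small in log2 units. Whether the scale compresses differences near its upper end was not tested, so these values do not show that the RNA was stable. The differences ran from -0.066 to 0.165, with a median of 0.019, a median standard error of 0.026 and a median gap between replicates of 0.023 in the controls and 0.016 after induction. For 60 of the 67 the 95% interval of the model lay within 0.15 log2 units of 0, which is 1.11-fold. Only 2 of the 67 (2.99%) differed by more than 0.1, against 98 of the 733 other bright probe sets (13.4%). The 733 were not matched to the members in brightness, and their median standard error was 0.031. In the dimmer part the median standard error was 0.082, 13 of 44 differed by more than 0.1 and only 3 of 44 had an interval within 0.15. In most of the dimmer probe sets the interval thus reached beyond 0.15 and does not exclude a change of that size.

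In the large subunit, the brightest probe sets of 22 genes were higher by sign and those of 10 were lower. Over both subunits 37 genes were higher and 15 lower, which cyclic loess turned to 20 and 32. At an unadjusted p under 0.05 stood 2 higher genes of the large subunit (6.25% of the 32), where the share over 19775 genes was 6.48%, and 0 lower ones, where it was 4.73%. RPL27 was the first of the 2. Its log2 intensities were 13.56 and 13.53 without induction, and 13.66 and 13.65 with it, a 1.08-fold difference of 0.11 (SE 0.026, adjusted p = 0.472, 95% interval 1.03 to 1.13-fold). Both induced arrays lay above both controls by more than either replicate gap. RPL14 was read at 13.45 and 13.43 in control arrays, against 13.50 and 13.56 in induced arrays, with a difference of 0.090 (SE 0.030, adjusted p = 0.472). Its groups did not overlap either, but another bright RPL14 probe set gave -0.016.

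The next genes by p among the higher ones were RPL36, RPL3 and RPLP1. RPL36 was measured at 12.26 and 12.30 without induction, and 12.33 and 12.36 with it, with a difference of 0.071 (SE 0.032). RPL3, which lies near the peptidyl transferase centre, differed by 0.097 (SE 0.045), from 13.19 and 13.06 in the controls to 13.20 and 13.24 in the induced arrays, and the second control array was the lowest. Without that array the RPL3 difference was 0.032. The acidic stalk protein RPLP1, which helps to recruit elongation factors, was read at 13.88 and 13.85 in control arrays, against 13.90 and 13.94 in induced arrays, with a difference of 0.057 (SE 0.027). The other stalk protein, RPLP2, had only dim probe sets with 1 symbol, measured at 8.28 and 8.47 without induction, and 8.64 and 8.29 with it for the brighter of them. Its groups overlapped, and the difference of 0.093 had a standard error of 0.12.

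Among the lower large subunit genes no difference exceeded 1 standard error. RPL10A was read at 13.83 and 13.90 in control arrays, against 13.83 and 13.85 in induced arrays, with a difference of -0.029 (SE 0.031). Another bright RPL10A probe set gave 0.027 (SE 0.027), of opposite sign. RPL34, RPL39, RPL32 and RPL37A differed by -0.019, -0.013, -0.0092 and -0.0081. RPL37A, a zinc-binding protein, was the brightest member, measured at 14.26 and 14.26 without induction, and 14.26 and 14.25 with it. RPL41, which encodes a very short and basic peptide, was 0.019 higher (SE 0.022). RPL11, which with RPL5 and 5S ribosomal RNA binds the p53 regulator MDM2 when assembly is disturbed, read 13.62 in each control array, against 13.62 and 13.64 in induced arrays, and differed by 0.0077 (SE 0.024). The interval of its difference and those of RPL34, RPL39, RPL32, RPL37A and RPL41 lay within 0.15.

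In the small subunit, 15 genes were higher by sign and 5 lower, part of the split that cyclic loess turned round, and at an unadjusted p under 0.05 stood 1 on the higher side (5% of the 20, against 6.48% of all genes) and 0 on the lower side (against 4.73%). RPS25, a protein of the head of the small subunit that is used in initiation at some viral internal entry sites, had the largest difference of all bright members. Its log2 intensities were 12.77 and 12.68 without induction, and 12.86 and 12.92 with it, a 1.12-fold difference of 0.165 (SE 0.040, adjusted p = 0.472, 95% interval 1.05 to 1.20-fold). The groups did not overlap, and this was the only probe set of RPS25. Left out one at a time, the arrays gave 0.12 to 0.21, and centring of the arrays or cyclic loess gave 0.19 and 0.14.

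The other higher small subunit genes lay close together. RPS24 was read at 13.62 and 13.60 in control arrays, against 13.64 and 13.67 in induced arrays, with a difference of 0.048 (SE 0.026). RPS29 differed by 0.046 (SE 0.025), RPS15 by 0.042 (SE 0.024) and RPS18 by 0.039 (SE 0.024). In each of these 4 genes both induced arrays lay above both controls, with adjusted p values from 0.562 to 0.602. The same held for 11 of the 20 small subunit genes and for 21.4% of all genes. It also held for 241 of the 733 other bright probe sets. The dimmer probe set of RPS29 gave -0.11, while those of RPS24 and RPS15 gave 0.0955 and 0.0962. Germline loss of 1 copy of RPS24 or RPS29 is known from Diamond-Blackfan anaemia. RPS6, the substrate of the S6 kinases downstream of mTOR, was measured at 13.70 and 13.71 without induction, and 13.73 and 13.73 with it, with a difference of 0.017 (SE 0.023).

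The lower small subunit genes were led by RPS21, read at 14.21 and 14.20 in control arrays, against 14.18 and 14.17 in induced arrays, with a difference of -0.031 (SE 0.022, adjusted p = 0.652). Both induced arrays were below both controls, and the other RPS21 probe set gave -0.069. RPS3, which lines the channel where messenger RNA enters, was measured at 13.94 and 13.93 without induction, and 13.90 and 13.92 with it, with a difference of -0.024 (SE 0.023). RPS9, RPS10 and RPS19 differed by -0.018, -0.0083 and -0.0060, each within 1 standard error.

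**Figure D2:**
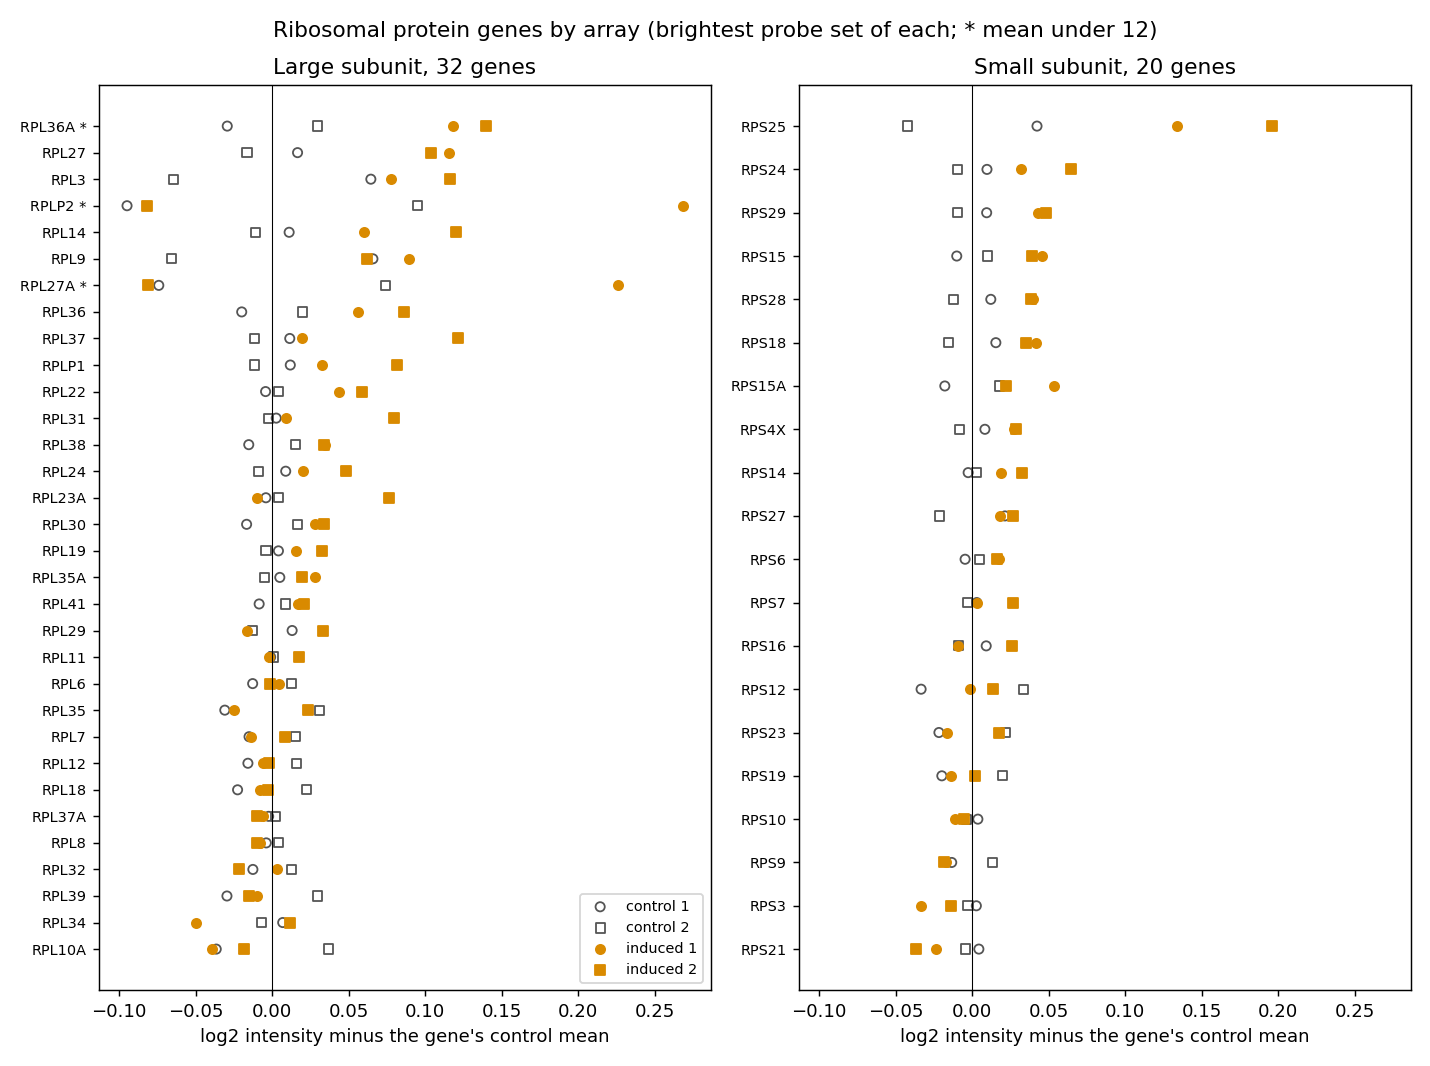
Log2 intensity of the brightest probe set of each of the 32 large subunit and 20 small subunit genes in each array, minus the mean of the 2 controls of that gene, ordered by difference (open grey, controls; filled orange, induced; circle, replicate 1; square, replicate 2; asterisk, mean under 12). Most genes lie within 0.1 of their control mean in all 4 arrays. RPS25, RPL27 and RPL14 are among the bright genes with both induced arrays to the right of both controls.

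The large and small subunits were then set against each other. The median difference was 0.028 over the 32 large subunit genes and 0.020 over the 20 small subunit genes, against -0.0030 over all 19775 genes. The large minus small difference of these medians was 0.0081. By array, a large minus small value was taken instead from the median deviations of the genes from their own means over all arrays. That value was -0.0085 and 0.0080 without induction, and -0.0027 and 0.0039 with it, so the groups overlapped. The SD between replicates of these array values was 0.0089, and they are not a breakdown of the 0.0081. The difference of the medians turned to -0.0024 without the first control array and to -0.0015 without the second induced array.

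Array by array, the median deviation of the 52 genes from their own 4-array means was -0.014 and -0.0070 without induction, and 0.0040 and 0.017 with it. The second induced array was the highest of the 4 for 24 of the 52 genes (46.2%, against 30.3% of all genes) and the first control array for 3 (5.77%, against 19.1%). In the large subunit the first control array was the highest for 0 of 32 genes. These shares of all genes are not matched in brightness. Above a log2 mean of 12 the second induced array was the highest for 44.8% of the 67 member probe sets and 37.9% of the 733 others. For the first control array the shares were 11.9% and 25.4%. In the 733 other bright probe sets the median deviations were 0.0021 and -0.015 without induction, and 0.0023 and 0.0098 with it. Over all genes they were -0.0036 and 0.0074, and -0.0044 and 0.0035. In the 52 genes, the 733 and all genes the second induced array was above the first. The first control array was below the second in the 52 genes and all genes and above it in the 733. It was also above it in the 67 bright member probe sets, at -0.0082 and -0.0105. The differences between the sets were not tested. The median difference of the 733 was 0.015, beside 0.019 for the 67 bright member probe sets. Without the second induced array the medians were 0.016 for the large and 0.018 for the small subunit, and 32 of the 52 genes were higher by sign in place of 37.

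**Figure D3:**
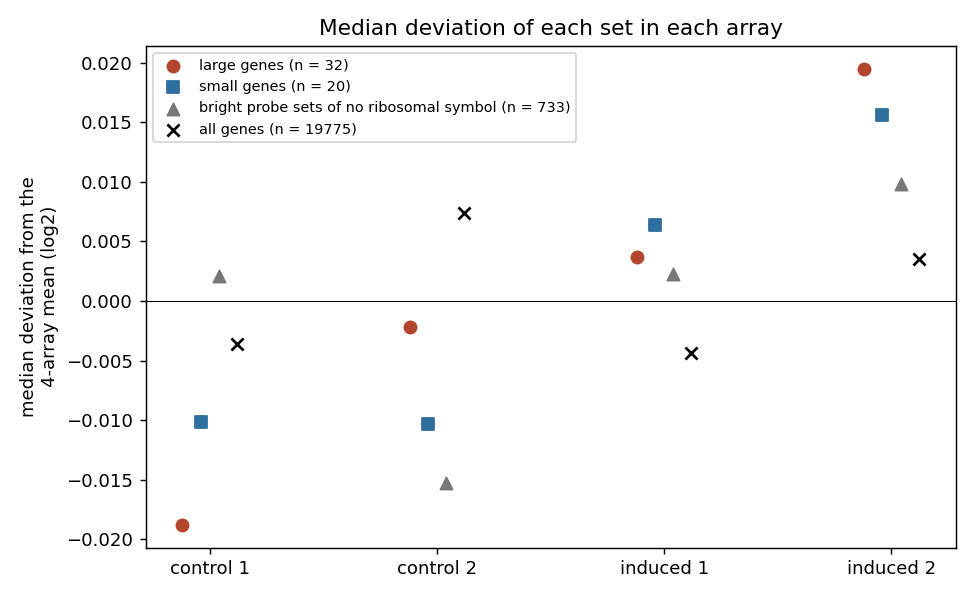
Median deviation of each set from its own mean over the 4 arrays (vertical axis, log2) in each array, for the 32 large subunit genes, the 20 small subunit genes, 733 other bright probe sets (no symbol that the choice of members allowed), and all 19775 genes. Both subunits lie at or below -0.0022 in the controls and at or above 0.0037 after induction, with the second induced array at 0.020 and 0.016. These are values as deposited, and cyclic loess turned the subunit medians to -0.0073 and -0.016.

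The direction of this shift depended on how the arrays were scaled. In the deposited values 44 bright member probe sets were higher and 23 lower. Subtracting the median of each array made it 62 and 5, and the median of the large and small subunit genes became 0.052 and 0.044. Cyclic loess, which evens out differences between arrays along the intensity scale, made it 21 and 46, with subunit medians of -0.0073 and -0.016. The 733 other bright probe sets turned with them, from 454 higher and 279 lower as deposited to 289 and 444 after cyclic loess. Centring moved the median of all genes from -0.0030 to 0.022, and cyclic loess moved it to 0.0055. RPS25, RPL27 and RPL14 were higher and RPS21 lower under both scalings. The 3' minus 5' log2 signal of ACTB was -0.036 and 0.021 without induction, and 0.033 and 0.11 with it, and that of GAPDH was -0.067 and -0.069 without induction, and -0.043 and -0.047 with it. The part of this in the shift of the ribosomal protein genes was not tested.

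Several probe sets were available for 33 of the 52 genes, and they often disagreed. Of the 14 genes with 2 or more bright probe sets, 8 had bright probe sets of opposite sign. RPL29 gave 0.0085 and -0.066, RPS4X 0.028 and -0.027, and RPS19 -0.0060 and 0.054. RPL22, which binds RNA and also a small viral RNA, gave 0.051, 0.017 and -0.035 from 3 bright probe sets and -0.011 and -0.045 from 2 dimmer ones. Of the 26 genes with both bright and dimmer probe sets, 19 had their largest absolute difference in a dimmer one.

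The widest ranges over the probe sets of a gene were in RPL37A, RPS14, RPS9, RPL18 and RPLP1. A dimmer RPL37A probe set read 8.62 and 8.63 in control arrays, against 8.99 and 8.76 in induced arrays, the largest member difference at 0.25 (SE 0.080, adjusted p = 0.472), while the brightest gave -0.0081 and another -0.079. For RPS14 the lowest was measured at 6.21 and 6.15 without induction, and 5.99 and 5.84 with it. This probe set gave -0.26 (SE 0.095, adjusted p = 0.477), the largest difference downward. The bright RPS14 probe set gave 0.025 (SE 0.024). A dimmer RPL18 probe set, read at 8.02 and 8.01 in control arrays, against 8.15 and 8.21 in induced arrays, gave 0.165 (SE 0.059, adjusted p = 0.476), and the bright one gave -0.0054. RPS9 ran from -0.018 in its bright to 0.185 in its dimmest probe set, and RPLP1 from 0.057 to -0.13. The bright probe sets of these 5 genes ran from -0.018 in RPS9 to 0.057 in RPLP1.

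**Figure D4:**
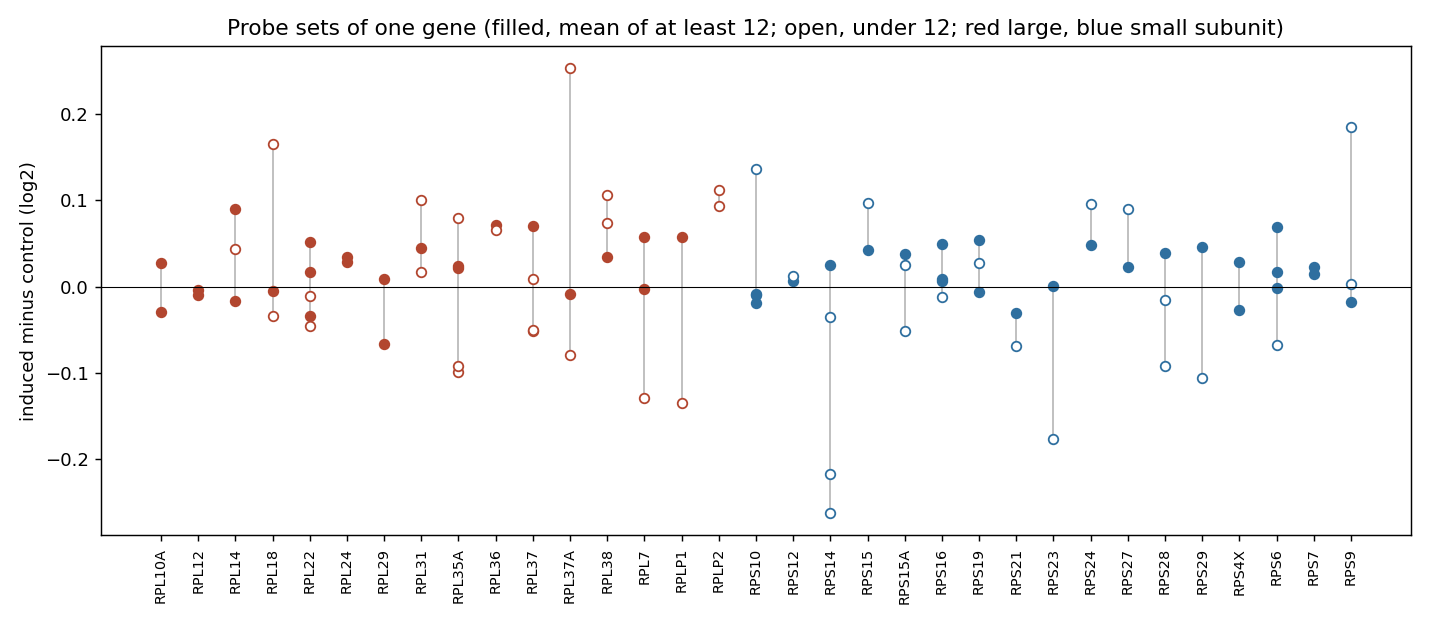
Difference between induced and control arrays (vertical axis, log2) for each probe set of the 33 genes with more than 1 (red, large subunit; blue, small subunit; filled, log2 mean of at least 12; open, under 12; a grey line joins the probe sets of a gene). The filled points lie between -0.066 and 0.090, and the extremes of 0.25 in RPL37A and -0.26 in RPS14 are open points.

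Probe sets on this array end in _x_at where probes match other sequences too and in _s_at where they match several transcripts. Of the 67 bright members 26 end in _x_at, 30 in _s_at and 11 in neither way. The median difference was 0.016 in the first, 0.023 in the second and 0.00070 in the third, where 6 were higher and 5 lower by sign. With only the probe sets of the third kind, the dimmer ones included, the median was -0.0054 for the large and 0.00070 for the small subunit genes. The part of signal from pseudogenes or other transcripts in these values was not tested.

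Ribosomal proteins and paralogs that the choice of members left out were 9 genes with values from the list drawn up for them, none of them at an unadjusted p under 0.05. FAU, which encodes a small subunit protein fused to a ubiquitin-like domain, differed by -0.018 (SE 0.031). The paralog RPL22L1 was measured at 11.97 and 11.99 without induction, and 11.99 and 12.05 with it, with a difference of 0.044 (SE 0.034), beside 0.051 in the brightest probe set of RPL22. RPS27L, a target of p53, differed by 0.025 (SE 0.039), beside 0.022 in RPS27, and its other probe sets gave 0.10 and 0.23. RPL7L1 gave 0.039, beside -0.0028 in RPL7, and RPL36AL gave 0.055, while RPL36A had only 1 dim probe set at 0.13 (SE 0.092). RPL26L1 differed by -0.019 (SE 0.052). RPL39L, at 4.94 and 5.19 in the controls, RPL3L and RPL10L were all dim, with RPL3L at -0.16 (SE 0.096) and RPL10L at 0.14 (SE 0.089).

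The genes that serve the ribosome were described by lists. Of 17 measured translation factors and other genes of the TOP class, 11 were higher and 6 lower by sign, with a median of 0.026, and 2 of the 17 were higher and 0 lower with an unadjusted p under 0.05, where the shares over all genes were 6.48% and 4.73%. These were the nascent chain factor BTF3 at 0.10 (SE 0.038, adjusted p = 0.486) and the nucleolar chaperone NPM1 at 0.065 (SE 0.025, adjusted p = 0.490). BTF3 was read at 13.01 and 12.93 in control arrays, against 13.04 and 13.11 in induced arrays, and NPM1 was at 13.69 and 13.66 and then at 13.72 and 13.75. The other probe sets of BTF3 ran from -0.11 to 0.13 and those of NPM1 from -0.029 to 0.062. EIF3K, a subunit of an initiation factor, gave 0.067 (SE 0.034). Cyclic loess turned the median of this list to -0.011.

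Among ribosome assembly factors the differences ran from -0.12 to 0.24. Of 47 measured genes, 28 were higher and 19 lower by sign, with a median of 0.033, and at an unadjusted p under 0.05 stood 8 on the higher and 0 on the lower side, where the shares over all genes were 6.48% and 4.73%. None was called. RRP15, a nucleolar factor of the large subunit, was measured at 10.36 and 10.41 without induction, and 10.55 and 10.56 with it, with a difference of 0.17 (SE 0.040, adjusted p = 0.472). NOP58, a core protein of the box C/D particles that guide methylation of ribosomal RNA, was at 11.83 and 11.78 without induction and at 11.92 and 11.997 with it, with a difference of 0.15 (SE 0.039, adjusted p = 0.472). The nucleolar GTPase GTPBP4 was at 11.38 and 11.29 and then at 11.48 and 11.60, with a difference of 0.20 (SE 0.053, adjusted p = 0.472), though its other probe sets gave 0.036 and 0.079. The list median was 0.017 after cyclic loess, with 27 higher and 20 lower.

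Of 15 RNA polymerase I genes, whose enzyme makes the large ribosomal RNA precursor, 10 were higher and 5 lower by sign, with a median of 0.030 and 0 at an unadjusted p under 0.05 in either direction. The second largest subunit POLR1B differed by 0.14 (SE 0.059) with other probe sets from -0.050 to 0.025, and the selectivity factor subunits TAF1A and TAF1C by 0.085 (SE 0.060) and -0.11 (SE 0.063). The members themselves had medians of 0.028 and 0.020.

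**Figure D5:**
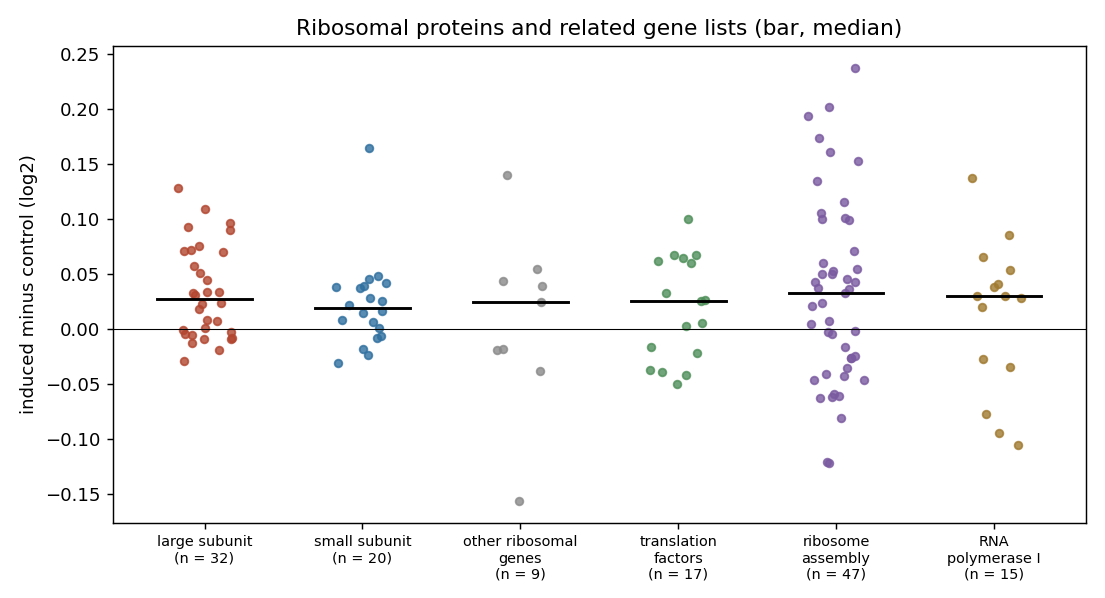
Difference between induced and control arrays (vertical axis, log2) for each gene of the large subunit (32), the small subunit (20), other ribosomal genes (9), translation factors (17), ribosome assembly factors (47) and RNA polymerase I genes (15), with a bar at the median of each. The medians lie between 0.020 and 0.033, and single assembly factors reach 0.24.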

How the data were processed

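Gene expression was measured in 4 cultures of LN-229. Each deposited value is a probe set's log2 intensity. According to the submitters' processing notes the authors computed it by RMA with affy, whose version is not given in the sources used here. RMA equalises the distributions of probe intensities between arrays, so a change shared by most genes would not be seen. Gene names came from the platform annotation, in which 41091 probe sets have 1 symbol, 1801 several and 11721 none. All 52 member genes were matched by identifier to RefSeq (GRCh38.p14). Of 54675 rows, 62 controls were left out. limma 3.58.1 in R 4.3.3 (lmFit, eBayes with an intensity trend, 2-sided, 6.27 degrees of freedom) was fitted on 54613 probe sets, with Benjamini-Hochberg adjustment over all of them. The test was tried on 5 simulated data sets, where it called 11.2% of the changes of 0.5 log2 units put in and 69.6% of those of 1. No change as small as the member differences was put in. A gene is represented by its brightest probe set with 1 symbol. Array number limits the precision.

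The members and lists were chosen with earlier results of these data known, and the limit for bright probe sets, the tract at start sites and the sets that disagreed were chosen after values were seen. Named genes were, per subunit, the 5 of smallest p in each direction, a fixed set of members and paralogs, the 5 genes whose probe sets differed most, and 3 per related list. All others were chosen after their values were seen. Alternatives were a replicate block, eBayes without trend or robust, a filter on dim probe sets, median centring, cyclic loess, other choices of probe sets, an adjusted p threshold of 0.1 and leaving out each array.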

Additional observations from a re-analysis of the deposited data

Results flagged for a closer look

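Ribosomal RNA is read by control probe sets that stood outside the comparisons. One of 6, AFFX-M27830_3_at for the 3' end of 28S ribosomal RNA, had group means that differed by 0.3731. The larger gap between its replicates was 0.26. This set read 5.98 and 5.91 without induction, and 6.18 and 6.45 with it, where the array medians lay from 6.15 to 6.19. The 5' and middle sets of the same RNA, at 12.33 and 12.18 and at 10.61 and 10.64 in the controls, differed by 0.076 and 0.026. The 3 sets for 18S ribosomal RNA differed by -0.25, -0.49 and -0.49, with gaps within a group of 0.42, 0.55 and 0.54.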

How the results depend on the processing

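No member probe set was called under any alternative run. Over all probe sets the count of 0 became 2 with robust estimation and at a threshold of 0.1, 5 after centring and 11 after cyclic loess. The 5 members higher at an unadjusted p became 2 without the trend, 8 after centring, 3 among bright probe sets and 0 without _x_at and _s_at probe sets. The 1 lower became 0 with the filter on dim probe sets, 3 after cyclic loess and 0 among bright probe sets. With the replicate block 4 were higher and 1 lower. The labels do not say that the numbers pair cultures. The correlation of same-numbered deviations was 0.056 over all probe sets and -0.27 over the member probe sets. Leaving out each array gave 2 to 6 higher and 0 to 1 lower, with 2 and 0 without the second control array.

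The large subunit median was 0.0523 after centring, -0.0073 after cyclic loess and -0.0054 without _x_at and _s_at probe sets. The small subunit median was 0.0442, -0.0159 and 0.0007 under the same settings and 0.0112 over the mean of all probe sets of a gene. Large minus small was -0.0061 without _x_at and _s_at probe sets. Leaving out each array gave 0.0163 to 0.0280 for the large subunit, 0.0178 to 0.0261 for the small subunit and -0.0024 to 0.0042 for their difference. The cause of these moves was not tested.

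Over the named genes 36 values changed sign and 430 did not. After centring they were RPL18 0.0192, RPL26L1 0.0055, RPL32 0.0155, RPL34 0.0056, RPL37A 0.0166, RPL39 0.0119, RPL7 0.0218, RPS10 0.0163, RPS19 0.0186, RPS3 0.0010 and RPS9 0.0071. After cyclic loess they were RPL11 -0.0273, RPL41 -0.0196, RPS14 -0.0083, RPS27 -0.0132, RPS27L -0.0055 and RPS6 -0.0186. Leaving out each array changed the sign of 13 genes, with ranges of -0.0656 to 0.0076 for RPL10A, -0.0021 to 0.0175 for RPL11, -0.0281 to 0.0173 for RPL18, -0.0714 to 0.0332 for RPL26L1, -0.0218 to 0.0035 for RPL32, -0.0495 to 0.0114 for RPL34, -0.0423 to 0.0169 for RPL39, -0.1634 to 0.0881 for RPL39L, -0.0180 to 0.0124 for RPL7, -0.0045 to 0.0835 for RPL7L1, -0.0820 to 0.2683 for RPLP2, -0.0258 to 0.0138 for RPS19 and -0.0268 to 0.0767 for RPS27L. The array whose loss did so was the second control for RPL10A, RPL18, RPL26L1, RPL32, RPL39, RPL39L, RPL7 and RPS19, the first induced one for RPL26L1, RPL34, RPL39L, RPL7, RPLP2 and RPS19, the second induced one for RPL11, RPL32, RPL7L1 and RPS27L, and the first control for RPLP2. An array left alone in its group was taken to vary as those of the other group did.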

Other observations

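Another 64 probe sets name a ribosomal protein together with other genes, in 56 cases a small nucleolar RNA that lies in an intron of the gene, and were left out because they have several symbols. They stand for 22 ribosomal protein genes, 15 of them not among the 52. Of the 46 bright ones, 31 were higher and 15 lower by sign, with a median difference of 0.021, beside 0.019 for the bright members. At an unadjusted p under 0.05 stood 5 higher (10.9%) and 1 lower (2.17%), against 4.75% and 5.27% of all probe sets. Of the 733 other bright probe sets described above, 13.8% and 5.59% did so. Of the 46, 1 differed by more than 0.1. Over all 64, 0 were called by limma and the smallest adjusted p was 0.472.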
